A study of Mus musculus with 6 samples.

Results

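The genes described here are 7 genes of melanosome ion, pH and metal transport and signalling, *Oca2*, *Slc45a2*, *Slc24a5*, *Gpr143*, *Trpm1*, *Tpcn2* and *Atp7a*, chosen by mouse symbol for their function from the 18324 gene rows of the count table. All 7 were present, and 6 had enough counts to be tested, *Tpcn2* being the exception. The cells were of B16-F10, a pigment-producing mouse melanoma line of the C57BL/6 background, grown without any drug or genetic change named in the labels. They were sorted by flow cytometry, on the light scatter that melanin causes, into high-pigmented and low-pigmented cells, and 3 libraries of each group were sequenced from near the polyadenylated end of transcripts. Each high-pigmented library shares a title suffix with 1 low-pigmented library, and these sets are called pairs 1, 2 and 3. Both groups come from 1 line in culture, and the labels do not say whether the pairs are separate cultures, so p-values measure the spread between these libraries, which may be technical. In RNA from sorted bulk cells, fewer cells that express a gene and less RNA per cell cannot be told apart.

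Melanin is made inside melanosomes, organelles related to lysosomes, by tyrosinase, a copper enzyme that works poorly at acidic pH. Channels and transporters of the melanosome membrane raise or lower the pH of its lumen and move calcium, sodium, chloride and copper across it, and loss of several of them causes forms of albinism in mouse and human. *Oca2* encodes the pink-eyed dilution protein, which supports a melanosomal chloride conductance. *Slc45a2* encodes a membrane transporter that keeps melanosomes from acidifying. *Slc24a5* encodes a potassium-dependent sodium/calcium exchanger of intracellular membranes. *Gpr143* encodes the ocular albinism receptor, a G-protein-coupled receptor that sits on the melanosome itself. *Trpm1* encodes melastatin, a cation channel of melanocytes and of retinal bipolar cells. *Tpcn2* encodes a cation channel of endolysosomes and melanosomes, and *Atp7a* encodes the copper pump that loads tyrosinase.

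The promoters are shown because *Trpm1* and *Oca2* were higher in high-pigmented cells of pairs 1 and 3 while *Slc24a5* and *Atp7a* differed little there. MITF, the transcription factor that drives pigment genes, and its relatives TFEB and TFE3 bind E-boxes, of which CATGTG, its 1-base-longer form TCATGTG and CACGTG were searched on both strands. Each line holds the 200 bases before an annotated RefSeq start (GRCm38.p6, sense strand of the gene, 5′ to 3′), with matches in capitals. RefSeq windows were matched for 5 of the 7 genes.
Trpm1, chr7:64153635-64153834, plus strand: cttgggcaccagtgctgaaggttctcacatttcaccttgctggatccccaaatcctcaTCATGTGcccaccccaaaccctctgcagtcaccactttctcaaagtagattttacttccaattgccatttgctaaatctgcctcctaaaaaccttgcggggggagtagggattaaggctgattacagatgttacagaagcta
Oca2, chr7:56239559-56239758, plus strand: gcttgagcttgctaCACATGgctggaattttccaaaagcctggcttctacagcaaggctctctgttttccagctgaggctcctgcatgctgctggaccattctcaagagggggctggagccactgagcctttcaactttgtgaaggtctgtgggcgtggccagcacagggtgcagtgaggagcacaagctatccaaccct
Slc24a5, chr2:125067927-125068126, plus strand: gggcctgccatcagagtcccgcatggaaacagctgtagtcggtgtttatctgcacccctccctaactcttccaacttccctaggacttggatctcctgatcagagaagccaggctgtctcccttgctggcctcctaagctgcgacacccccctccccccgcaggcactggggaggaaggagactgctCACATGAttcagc
Atp7a, chrX:106027024-106027223, plus strand: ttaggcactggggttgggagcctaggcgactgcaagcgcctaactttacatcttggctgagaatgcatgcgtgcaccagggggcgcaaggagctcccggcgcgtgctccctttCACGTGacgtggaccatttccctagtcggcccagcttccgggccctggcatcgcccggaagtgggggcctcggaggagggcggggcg

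The upstream *Trpm1* start had TCATGTG with its first base 142 bases before the start, and *Slc24a5* had its reverse complement 13 bases before the start. *Oca2* had CATGTG on the reverse strand 186 bases before the start used here and no TCATGTG. The RefSeq gene record of *Oca2* begins at 56239593, inside the printed window, so this window lies before a more downstream start. *Atp7a* had CACGTG 87 bases before the start. Among 32851 RefSeq windows of 250 bases before a start, 3.25% held TCATGTG, 12.25% held CATGTG, which every TCATGTG contains, and 6.02% held CACGTG. A second *Trpm1* start had only CACGTG, 229 bases upstream, and the *Tpcn2* window held none of the 3 motifs. A match is a run of letters and not a measured binding site, and a link between these motifs and the levels below was not tested.

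All 7 genes are protein-coding in GENCODE vM21 on GRCm38, the build named in the submitters' processing notes. *Trpm1* (chromosome 7, 64153835 to 64269775, plus strand, 27 exons in its longest transcript) contains *Mir211* on the same strand, outside its annotated exons. The main product of that microRNA is shown because it is read from the same host gene, with its seed, bases 2 to 8, in capitals; it was not measured in these libraries.
mmu-miR-211-5p: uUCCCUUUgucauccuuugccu

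*Oca2* lies on chromosome 7 at 56239760 to 56536518 (plus strand, 25 exons), *Slc45a2* on chromosome 15 at 11000721 to 11029233 (plus strand, 7 exons), and *Slc24a5* on chromosome 2 at 125068124 to 125088677 (plus strand, 9 exons). *Gpr143* lies on chromosome X at 152781921 to 152808646 (plus strand, 9 exons) and *Atp7a* on chromosome X at 106027276 to 106124926 (plus strand, 23 exons). *Tpcn2* occupies chromosome 7 from 145186524 to 145284011 on the minus strand, with 25 exons in its longest transcript.

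Gene counts totalled between 3819605 and 7311131 per library. Pair 2 stood apart from the others in composition. The row RP23-81C12.3 took 53.9% of gene counts in its high-pigmented and 27.1% in its low-pigmented library, against 3.54% to 5.03% elsewhere. Mitochondrial ribosomal RNA took 12.2% and 7.69% there and 1.51% to 1.99% elsewhere, and 10620 and 12778 genes had a count there, against 14130 to 15002 elsewhere. TMM normalisation factors, which rescale libraries for such rows, were 0.452 and 0.736 in pair 2 and between 1.31 and 1.33 elsewhere. The 7 melanocyte markers *Mitf*, *Sox10*, *Pmel*, *Mlana*, *Tyr*, *Tyrp1* and *Dct* were detected in every library, with a summed level of 4443 to 20733 CPM in high-pigmented and 6189 to 17282 CPM in low-pigmented libraries. Of 12 markers of leukocytes, epithelium, endothelium and fibroblasts, 5 had a row in the table, and their summed level was between 0.468 and 6.58 CPM except in the high-pigmented library of pair 2, where it was 39.0 CPM. Their part in the results was not tested. Results below are therefore given with and without pair 2.

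Levels are given as CPM, counts scaled to the TMM-normalised size of the library. In libraries of this kind a transcript gives reads from its end only, so counts do not scale with transcript length and CPM were compared between genes as they stand. *Slc45a2* was the most abundant of the 7 in every library, with a mean level of 456 ± 283 CPM in the high-pigmented group and 273 ± 195 CPM in the low-pigmented group (SD, n = 3 each). It supplied 52.8% to 84.1% of the counts of the 7 genes together. *Trpm1* came next at 125 ± 127 CPM and 35.6 ± 24.6 CPM, and *Atp7a* was at 31.2 ± 17.5 CPM and 30.7 ± 7.69 CPM (SD, n = 3 each). *Trpm1* exceeded *Atp7a* in 5 of 6 libraries, and their levels in low-pigmented cells differed by less than their spread. *Slc24a5* was at 14.6 ± 6.72 CPM and 10.9 ± 9.39 CPM, and *Oca2* at 17.3 ± 13.9 CPM and 5.76 ± 5.33 CPM (high- and low-pigmented cells, SD, n = 3 each). These 2 genes did not differ from each other beyond their spread, with *Slc24a5* higher in 4 of 6 libraries. *Gpr143* had 7.48 ± 6.81 CPM and 2.85 ± 2.48 CPM (SD, n = 3 each), and *Tpcn2* was close to undetected.

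**Figure D1:**
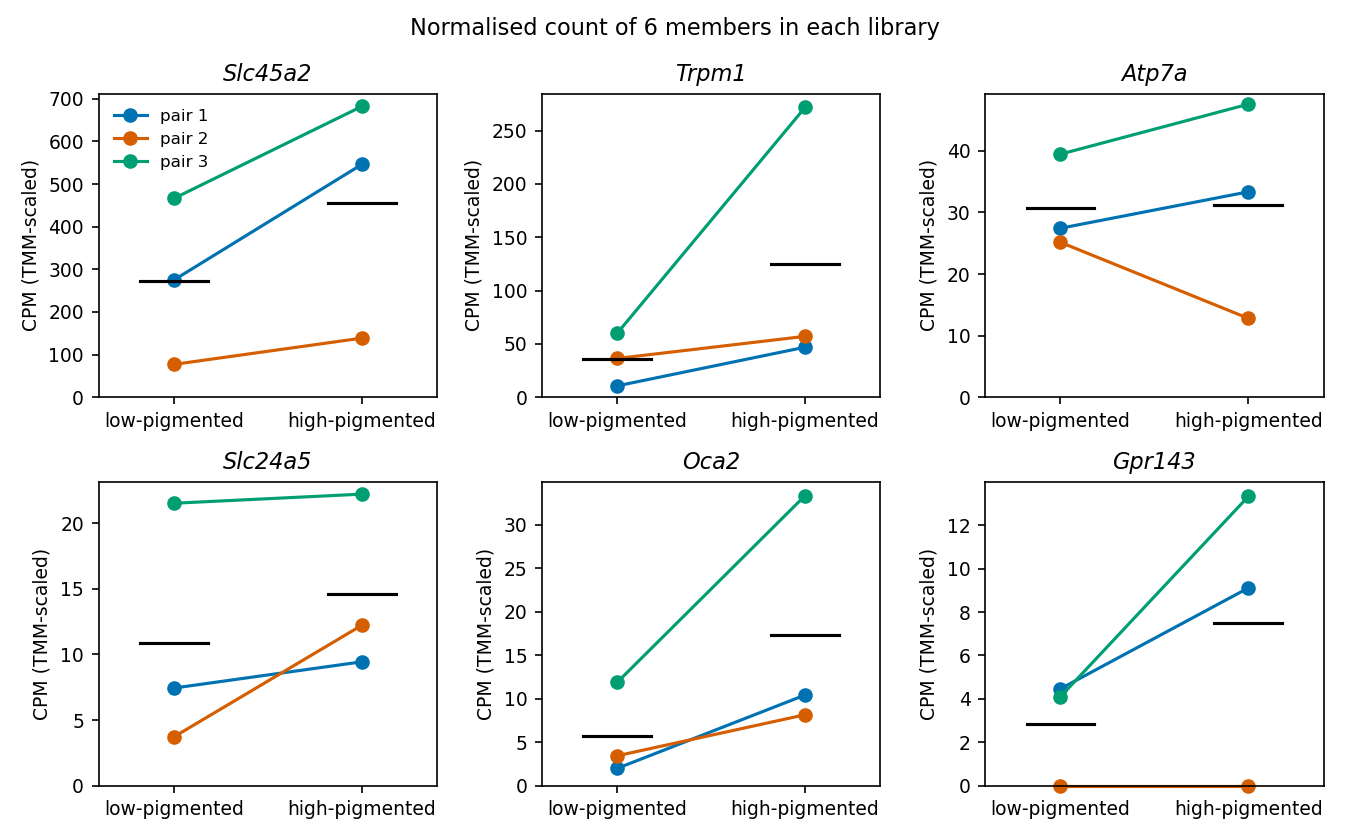
Normalised count (CPM on TMM-scaled library sizes, linear axis from 0) of 6 genes in each of the 6 libraries; lines join the libraries of a pair and black bars are group means (n = 3). Lines of pairs 1 and 3 slope upward towards the high-pigmented library in all 6 panels, while *Atp7a* slopes downward in pair 2 and *Gpr143* has no count in either library of pair 2.

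The main comparison asked whether transcripts of these genes differ between high- and low-pigmented cells. Over all 6 libraries and without regard to pairs, 0 of the 6 tested genes passed an adjusted p of 0.05, where 0 of 11324 genes (0%) did (edgeR quasi-likelihood fit, Benjamini-Hochberg over all genes). At an unadjusted p under 0.05 there were 0 of the 6 genes and 38 of all genes (0.336%), and DESeq2 also called 0 genes. The fold changes of the 6 genes were between 1.02 and 3.52, all towards high-pigmented cells, and their median on the log2 scale was 1.07 against -0.04 over all genes tested. No gene of the 6 had all its high-pigmented libraries above all its low-pigmented ones, as 275 of all genes did (2.43%).

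Levels also differed between pairs within each group. The high-pigmented library of pair 3 had 5.80 times the *Trpm1* level of that of pair 1, and among low-pigmented libraries the ratio was 5.66. For *Oca2* the same ratios were 3.20 and 5.98, for *Slc24a5* 2.35 and 2.89, and for *Slc45a2* 1.25 and 1.70. They were 1.43 and 1.44 for *Atp7a* and 1.46 and 0.917 for *Gpr143*.

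With the pairs as a block in the same test, 0 of 11324 genes (0%) passed over all 6 libraries, and 3 of the 6 genes had an unadjusted p under 0.05 where 213 of all genes did (1.88%). With pair 2 left out as well, *Trpm1*, *Oca2* and *Slc45a2* rose in high-pigmented cells, which makes 3 of the 6 tested genes where 0.932% of 11906 genes passed in that direction, 0.37% in the other and 1.3% in either. None of the 6 fell. This fit has 4 libraries, and it borrows the spread of each gene largely from other genes. Limma-voom with sample weights and the block, over all 6 libraries, called *Trpm1* and *Slc45a2* (adjusted p 0.000416 and 0.0265), where 0.238% of genes passed as higher, and gave *Oca2* an adjusted p of 0.0762. With pair 1 or pair 3 left out in place of pair 2, 0 genes passed in edgeR with the block.

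*Trpm1* had the largest log2 fold change of the 6 genes in the fit without pair 2. It was counted 288, 98 and 2324 times in the high-pigmented members of pairs 1, 2 and 3 and 64, 127 and 570 times in their low-pigmented partners. On the normalised scale these were 46.9, 57.0 and 272 CPM against 10.6, 36.3 and 59.8 CPM. The low-pigmented library of pair 3 thus had more *Trpm1* than high-pigmented cells of pairs 1 and 2, and the groups overlapped. Within pairs 1, 2 and 3 the high-pigmented library was 4.43, 1.57 and 4.54 times higher. Over all libraries the log2 fold change was 1.82 ± 0.85 (SE; edgeR adjusted p 0.9996), and with the block and without pair 2 it was 2.16 ± 0.18 (SE; edgeR adjusted p 4.17e-08), a 4.46-fold increase. In that fit the p of *Trpm1* ranked 2 among 11906 genes. The size in pair 2 depends on the scaling, since with library totals in place of TMM its log2 difference there was -0.05, while the median of all genes moved from -0.20 to -0.86. Relative to that median it was 0.81 higher. *Trpm1* transcripts share stretches of at least 100 nucleotides at 95% identity or more with transcripts of 18 other genes, of which 13 have a row of their own, and the longest is 173 nucleotides. Whether these stretches lie where the reads fall, and their bearing on the *Trpm1* counts, was not tested.

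*Oca2* showed the same order of libraries within pairs at a lower level. In pairs 1, 2 and 3 it was counted 64, 14 and 285 times in high-pigmented cells and 12, 12 and 113 times in their low-pigmented partners. The levels were 10.4, 8.15 and 33.3 CPM against 1.98, 3.43 and 11.9 CPM, so that only the low-pigmented library of pair 3 reached into the high-pigmented range. The high-pigmented library was 5.25, 2.38 and 2.81 times higher within the pairs. With library totals the log2 difference in pair 2 was 0.49, against 1.17 with TMM, and relative to the median of all genes it was 1.34. With counts of 14 and 12, the exact Poisson 95% intervals in pair 2, which cover counting error only, were 4.45 to 13.7 CPM and 1.77 to 5.99 CPM and overlapped. The log2 fold change was 1.58 ± 0.95 (SE; edgeR adjusted p 0.9996) over all libraries and 1.80 ± 0.35 (SE; edgeR adjusted p 0.00858), or 3.48-fold, with the block and without pair 2. *Oca2* and *Trpm1* were the 2 of the 6 genes that were at least 1 log2 unit higher in high-pigmented cells in both pair 1 and pair 3, as 0.742% of all genes tested were.

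*Slc45a2* had a smaller and more even difference. In pairs 1, 2 and 3 it was counted 3357, 238 and 5836 times in high-pigmented cells and 1663, 269 and 4442 times in their low-pigmented partners. The levels were 546, 139 and 682 CPM against 275, 76.9 and 466 CPM. Both libraries of pair 2 were the lowest of their groups, and the groups overlapped. The within-pair ratios were 1.99, 1.80 and 1.46. The log2 fold change of 0.74 ± 0.75 (SE; edgeR adjusted p 0.9996) over all libraries became 0.76 ± 0.13 (SE; edgeR adjusted p 0.00281), or 1.69-fold, with the block and without pair 2. With the block and all 6 libraries it was 0.80 ± 0.17 (SE; edgeR adjusted p 0.927). With library totals the log2 difference in pair 2 was 0.15, against 0.85 with TMM, and relative to the median of all genes it was 1.00.

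*Gpr143* was counted 56, 0 and 114 times in the high-pigmented members of pairs 1, 2 and 3 and 27, 0 and 39 times in their low-pigmented partners. In pairs 1 and 3 the high-pigmented levels of 9.11 and 13.3 CPM were above the low-pigmented levels of 4.46 and 4.09 CPM. In pair 2 the absence of counts allows up to 1.75 CPM in the high-pigmented and 0.858 CPM in the low-pigmented library, at 3 counts. Pair 2 therefore gives no ratio for this receptor gene. Its log2 fold change was 1.39 ± 1.62 (SE; edgeR adjusted p 0.9996) over all libraries and 1.37 ± 0.44 (SE; edgeR adjusted p 0.154) with the block and without pair 2, which did not pass.

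*Slc24a5* was counted 58, 21 and 190 times in high-pigmented cells of pairs 1, 2 and 3 and 45, 13 and 205 times in their low-pigmented partners. The levels were 9.44, 12.2 and 22.2 CPM against 7.44, 3.72 and 21.5 CPM. The exchanger gene was nearly even in pair 3, with a ratio of 1.03, and its ratios of 1.27 and 3.29 in pairs 1 and 2 rest on few counts. Its log2 fold change of 0.42 ± 0.82 (SE; edgeR adjusted p 0.9996) was 0.16 ± 0.31 (SE; edgeR adjusted p 0.905) with the block and without pair 2. On the opposite strand, *Myef2* shares 921 exon bases with *Slc24a5*, and the strand setting of the counting is not given in the sources used here, so reads of the 2 genes may not be separable. *Myef2* had 56.0 ± 29.1 CPM in the high-pigmented group and 79.4 ± 34.0 CPM in the low-pigmented group (SD, n = 3 each).

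*Atp7a* was counted 205, 22 and 407 times in high-pigmented cells of pairs 1, 2 and 3 and 166, 88 and 376 times in their low-pigmented partners. The levels were 33.4, 12.8 and 47.6 CPM against 27.4, 25.2 and 39.5 CPM. The copper pump gene was thus slightly higher in high-pigmented cells in pairs 1 and 3, by 1.22 and 1.21 times, and lower in that of pair 2, at 0.509 times. Its log2 fold change was 0.03 ± 0.56 (SE; edgeR adjusted p 0.9996) over all libraries and 0.27 ± 0.21 (SE; edgeR adjusted p 0.688) with the block and without pair 2. A difference could not be told from the spread between libraries in either fit.

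*Tpcn2* had 1 count in each library of pair 1 and 0 counts in the other 4 libraries, and no fold is given. The upper ends of its exact Poisson 95% intervals, which cover counting error only, were 0.387 to 2.15 CPM. RefSeq places the 3′ end of *Tpcn2* 4891 bases beyond the GENCODE vM21 end, and that of *Atp7a* 3235 bases beyond it. For the other 5 genes the ends differ by at most 5 bases. Which annotation was used for counting is not given in the sources used here, and the bearing of these ends on the counts was not tested.

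**Figure D2:**
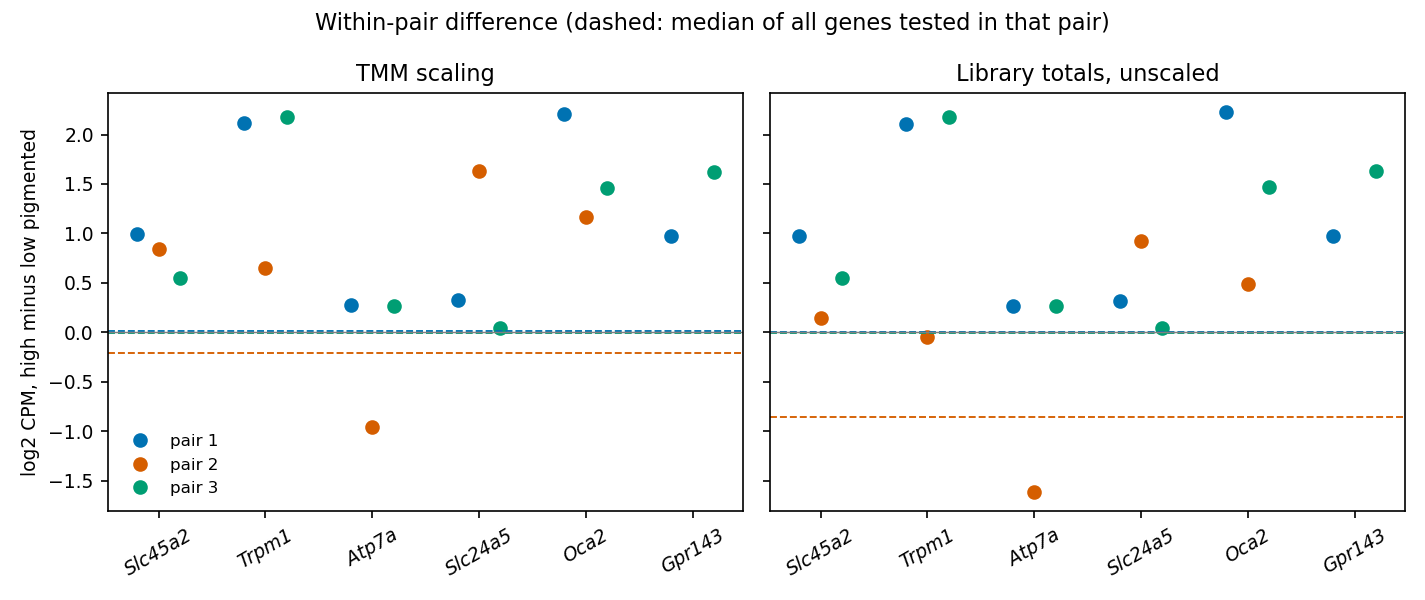
Difference in log2 CPM between the high- and low-pigmented library of each pair, for 6 genes, with TMM scaling (left) and with unscaled library totals (right); dashed lines mark the median of all 11324 genes tested in that pair. Points of pairs 1 and 3 lie above 0 with either scaling, *Trpm1* in pair 2 lies at 0.65 with TMM and at -0.05 with library totals, and *Atp7a* in pair 2 lies below 0 with both. *Gpr143* has no count and no point in pair 2.

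Across pairs, 4 of the 6 genes (*Oca2*, *Slc45a2*, *Slc24a5* and *Trpm1*) were higher in the high-pigmented library of all 3 pairs with TMM scaling, where 12.9% of all genes tested were; *Trpm1* in pair 2 was not with library totals. In pairs 1 and 3 all 6 were higher with either scaling, where 29.5% of all genes tested were with TMM. The median differences within pairs 1, 2 and 3 were 0.98, 0.85 and 1.01 on the log2 scale, over 5 genes in pair 2, where *Gpr143* has no value, and over 6 in the others, against 0.02, -0.20 and 0.00 over all genes. These counts describe genes that passed the filter on low counts and were chosen with earlier results of these data known.

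**Figure D3:**
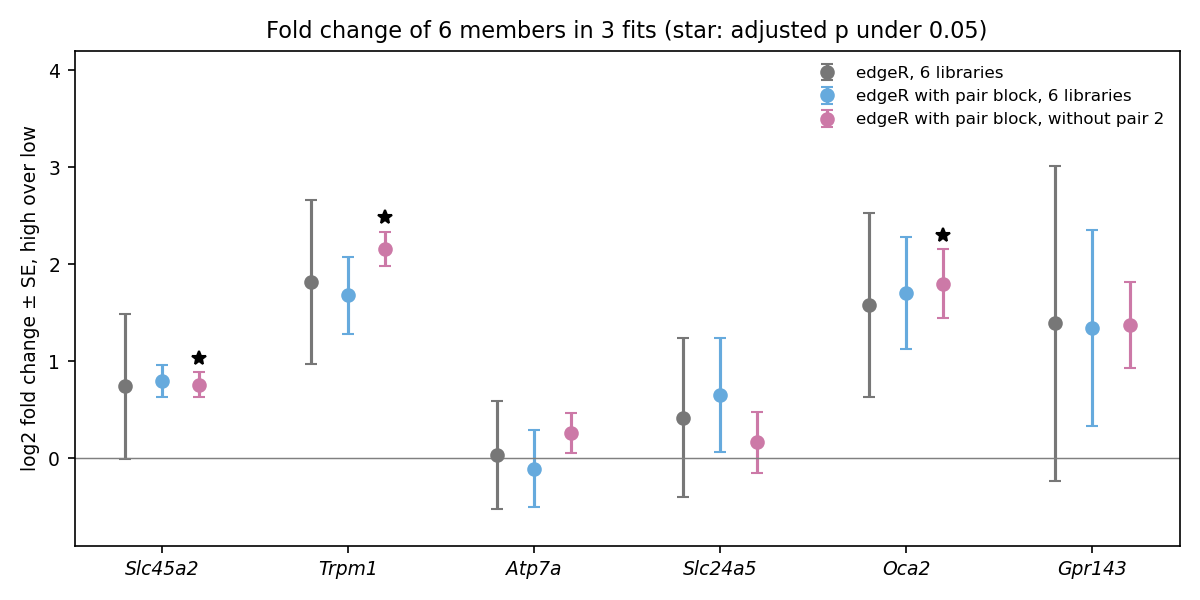
Log2 fold change, high over low pigmented, with its standard error for 6 genes in 3 edgeR fits: all 6 libraries, all 6 with the pairs as a block, and the block without pair 2; stars mark an adjusted p under 0.05. Stars appear for *Slc45a2*, *Trpm1* and *Oca2* in the fit without pair 2 alone, where their error bars are shortest.

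**Figure D4:**
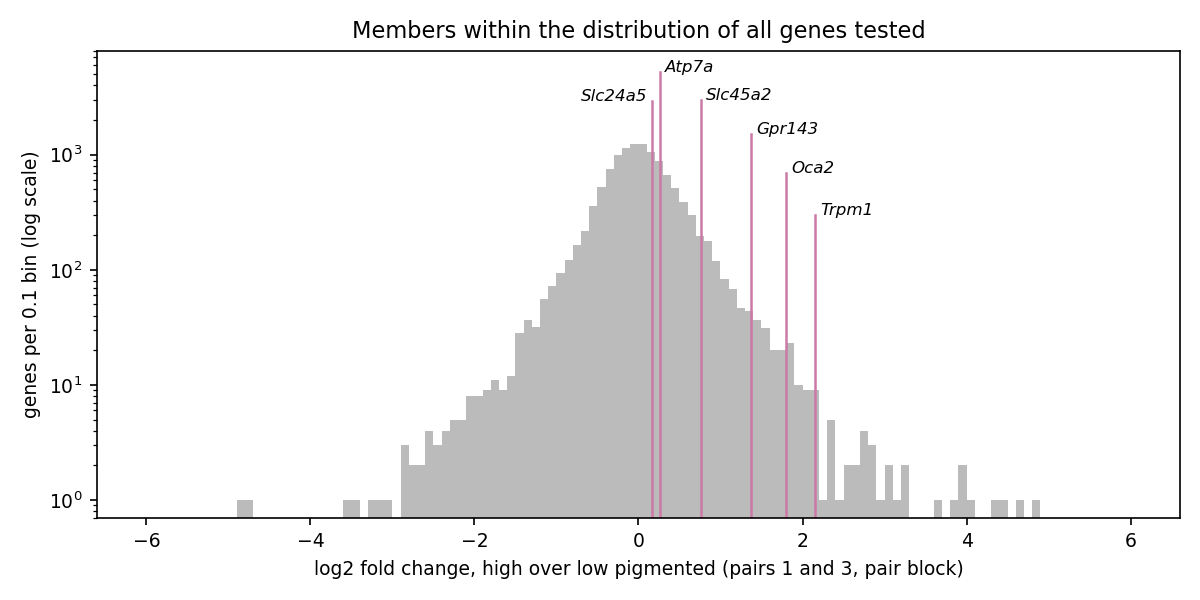
Distribution of the log2 fold change of all 11906 genes in the edgeR fit that blocks on pairs and omits pair 2 (bins of 0.1, log count axis), with the 6 tested genes marked by lines whose heights carry no value. *Trpm1* at 2.16, *Oca2* at 1.80 and *Gpr143* at 1.37 lie in the upper tail, and *Slc24a5* at 0.16 and *Atp7a* at 0.27 near the centre.

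Ratios between 2 of the genes within 1 library do not depend on library scaling. Per 1000 *Slc45a2* counts, *Oca2* had 19.1, 58.8 and 48.8 counts in high-pigmented cells of pairs 1, 2 and 3 and 7.22, 44.6 and 25.4 in their low-pigmented partners. *Oca2* was thus higher relative to *Slc45a2* in high-pigmented cells in every pair, by 2.64, 1.32 and 1.92 times. The ratio in pair 2 rests on only 14 and 12 *Oca2* counts. *Trpm1* had 85.8, 412 and 398 counts per 1000 *Slc45a2* counts in high-pigmented and 38.5, 472 and 128 in low-pigmented libraries. Relative to *Slc45a2* it was 2.23 and 3.10 times higher in pairs 1 and 3 and 0.872 times as high in pair 2. *Atp7a* was lower relative to *Slc45a2* in high-pigmented cells in every pair, at 0.612, 0.283 and 0.824 times. *Slc24a5* was lower relative to *Slc45a2* in high-pigmented cells of pairs 1 and 3, at 0.638 and 0.705 times, and higher in pair 2, at 1.83 times. The *Gpr143* ratio was 1.03 and 2.22 times higher in pairs 1 and 3. These ratios are a description and were not tested.

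**Figure D5:**
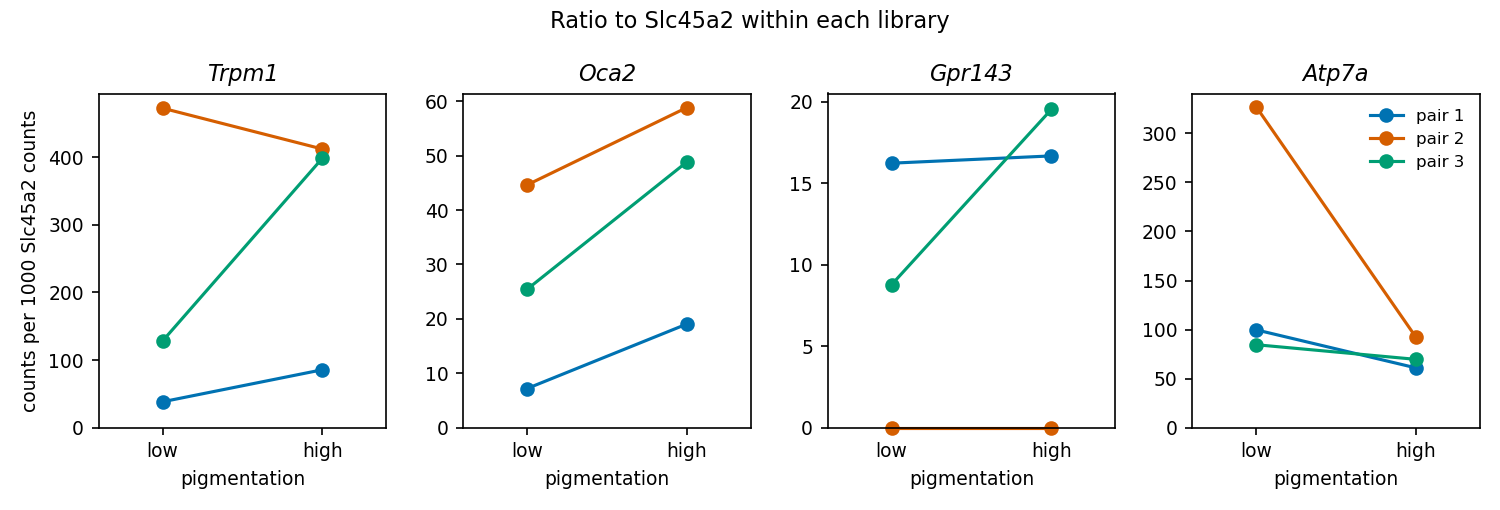
Counts of 4 genes per 1000 counts of *Slc45a2* in the same library, for low- and high-pigmented libraries, with lines joining pairs (linear axes from 0). *Oca2* lines rise in all 3 pairs, on few counts in pair 2. *Atp7a* lines fall in all 3, and *Trpm1* lines rise in pairs 1 and 3 and fall in pair 2.

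Other genes of the same processes were taken from lists chosen by function. None passed over all 6 libraries in edgeR, and in the fit with the block and without pair 2 the calls were few. Of 17 subunits and partners of the vacuolar proton pump, which acidifies these organelles, 14 had a positive log2 fold change over all libraries, as 47% of all genes tested did, with a median of 0.29 against -0.04. With the block and without pair 2 the median was 0.26, and 2 of 17 rose, where 0.932% of all genes did. These were *Atp6v0a1*, at 85.4, 44.8 and 177 CPM against 47.8, 79.5 and 99.6 CPM in pairs 1, 2 and 3 (edgeR log2 fold change 0.82, adjusted p 0.00720), and *Tcirg1*, which encodes another form of the same membrane subunit (edgeR log2 fold change 0.71, adjusted p 0.0289). Both were lower in the high-pigmented library of pair 2, by 0.82 and 0.80 on the log2 scale. The most abundant pump gene, *Atp6v0c*, had 1705 ± 350 CPM in the high-pigmented group and 1400 ± 295 CPM in the low-pigmented group (SD, n = 3 each).

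Of 20 other channels and transporters, most of them endolysosomal, 16 were tested over all libraries. Of these, 7 had a positive log2 fold change, and the median was -0.12. With the block and without pair 2 the median over 17 tested was 0.26, against 0.0013 over all genes. Without pair 2 and with the block, 1 of 17 tested changed, where 1.3% of all genes changed and 0.37% fell. This was *Slc7a11*, which encodes the cystine/glutamate exchanger of the cell surface and not an endolysosomal transporter. That exchanger supplies cysteine for glutathione and pheomelanin. *Slc7a11* fell in high-pigmented cells by 0.51 on the log2 scale (edgeR adjusted p 0.0413). Its levels were 411, 254 and 244 CPM against 549, 307 and 363 CPM in pairs 1, 2 and 3, lower in each pair. The chloride/proton exchangers *Clcn3* and *Clcn7* had log2 fold changes of -0.11 ± 0.41 and -0.22 ± 1.18 (SE) over all libraries. With the block and without pair 2 these were -0.23 and 0.26 (edgeR adjusted p 0.612 and 0.650). *Clcn7* was at 48.3, 0 and 86.7 CPM in high-pigmented cells of pairs 1, 2 and 3. Their low-pigmented partners were at 34.5, 41.7 and 82.2 CPM, so *Clcn7* was lower in high-pigmented cells in pair 2 alone.

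Of 13 genes of copper handling, 10 were tested, 6 had a positive log2 fold change, and 0 passed in either edgeR fit. The median was 0.08 over all libraries and 0.11 with the block and without pair 2. The metallothionein gene *Mt2*, a metal-binding protein gene, had 1171 ± 939 CPM in the high-pigmented group and 1110 ± 966 CPM in the low-pigmented group (SD, n = 3 each), and *Sod1*, a copper enzyme gene, had 763 ± 173 CPM and 818 ± 122 CPM. Of 11 genes of G-protein signalling, 10 were tested and 5 had a positive log2 fold change (median 0.04). The median was -0.12 with the block and without pair 2. *Mc1r*, the melanocortin receptor gene, had 145 ± 108 CPM and 120 ± 37.9 CPM (SD, n = 3 each), and *Gnai2* had a log2 fold change of 0.09 ± 0.39 (SE). Of 10 other TRP channels, 5 were tested and 3 had a positive log2 fold change. Their median was 0.07 over all libraries and 0.16 with the block and without pair 2. *Trpm2*, the most abundant of them, had 202 ± 216 CPM and 193 ± 143 CPM (SD, n = 3 each). *Trpv2* had 66.5, 103 and 38.3 CPM in high-pigmented cells of pairs 1, 2 and 3 and 43.6, 62.6 and 22.4 CPM in their low-pigmented partners, higher in each pair, with a log2 fold change of 0.69 ± 0.53 (SE; edgeR adjusted p 0.9996). *Trpm7* had 28.0 ± 20.4 CPM and 44.8 ± 3.82 CPM (SD, n = 3 each). No gene of these signalling and TRP lists passed in either edgeR fit.

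Among 5 genes of melanin enzymes and matrix, all tested, the median log2 fold change was 0.23, and *Pmel* rose in the fit with the block and without pair 2 (log2 fold change 0.74, edgeR adjusted p 0.000811). *Tyrp1* and *Dct* had log2 fold changes of 0.19 and 0.14 there (edgeR adjusted p 0.587 and 0.692). *Tyr* was counted 502, 2 and 277 times in high-pigmented cells of pairs 1, 2 and 3. Their low-pigmented partners had 507, 20 and 36 *Tyr* counts. The log2 differences of *Tyr* within these pairs were -0.04, -2.01 and 2.99, without a shared direction. *Tyr* did not pass over all 6 libraries or with the block and without pair 2 (edgeR adjusted p 0.9996 and 0.878). Of 7 regulators, 6 were tested and 0 passed in either fit. Their median was 0.13 over all libraries and 0.41 with the block and without pair 2. *Mitf*, whose product and relatives bind the motifs shown, had a log2 fold change of 0.25 (edgeR adjusted p 0.493) without pair 2 and with the block, and *Sox10* and *Pax3* had 0.29 and 0.10 (edgeR adjusted p 0.499 and 0.858).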

How the data were processed

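The authors' deposited table holds raw HTSeq counts for 6 libraries, as its title and tally rows state; STAR and GRCm38 are named in the submitters' processing notes. Per the labels' protocols, libraries were of Lexogen's QuantSeq forward 3′ type. Counting mode, strand setting and annotation are not given in the sources used here, nor are molecular identifiers, so intervals and limits cover counting error only. Genes were identified by mouse symbol, since the added human symbols list *Trpm1* under TRPM3 and *Atp7a* under ATP7B. Reads overlapping no gene (12.4% to 29.5% of tallied reads) or several (0.487% to 2.51%) were left out.

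All genes were tested with edgeR 4.0.16 (robust quasi-likelihood test, filterByExpr at a minimum count of 10, TMM) in R 4.3.3, with Benjamini-Hochberg adjustment over all genes; standard errors come from the test statistic, and log2 CPM uses a prior count of 2. DESeq2 1.42.0, limma 3.58.1, other scalings, the pair block and left-out libraries were alternatives. Libraries of a pair deviated together from their group means (correlations across genes of 0.466, 0.316 and 0.422). The pairing by shared title suffix was therefore used for within-pair differences and for the block, while the main fit left it out. No libraries were near-identical. Fits were also run on simulated data with a fixed spread that was not taken from these libraries, so that run does not show how they perform here. Shared sequence was searched with BLAST 2.17.0 in GENCODE vM21 transcripts.

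The members, the 9 lists and the alternatives that leave out pair 2 were chosen with earlier results of these data known. Named besides the 7 genes are list genes that passed in a fit with or without pair 2, up to 3 per list by mean CPM, and the 2 genes most correlated with each of those that average at least 10 CPM. *Tyr*, the tyrosinase gene, is given in addition.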

Additional observations from a re-analysis of the deposited data

How the results depend on the processing

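No gene passed over all 6 libraries in edgeR, and this count of 0 held for all genes and for the 7 described with the replicate block, DESeq2 size factors, no filter, DESeq2, limma-voom, 3 abundant rows left out, library totals, pair 2 left out with no block, the block without pair 1 or without pair 3, and each library left out in turn (0 in each). It became 155 genes and 3 of the 7 with the block and without pair 2, 102 and 3 in the same fit with library totals, and 34 and 2 in limma-voom with sample weights and the block. DESeq2 with the block gave 4 genes and 0 of the 7. The cause of these differences was not tested.

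Over 20 alternatives the log2 fold changes of *Trpm1*, *Oca2*, *Slc45a2* and *Gpr143* were positive in each, at 0.53 to 2.44, 0.67 to 2.70, 0.30 to 1.38 and 0.69 to 1.93. *Slc24a5* was -0.037 without the pair 3 library of high-pigmented cells and positive in the other 19, lying between -0.037 and 1.39 when single libraries were left out. *Atp7a* was negative with the replicate block (-0.11), DESeq2 with the replicate block (-0.092), the block without pair 1 (-0.32) and without pair 3 (-0.32), and lay between -0.41 and 0.40 when single libraries were left out. Low counts limit *Oca2*, *Slc24a5* and *Gpr143* in pair 2 and *Tpcn2* throughout. The alternatives with library totals and those without pair 1 or pair 3 were chosen after seeing the data.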

Other observations

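Among 7781 other genes averaging at least 10 CPM, the 2 whose log2 CPM most closely followed each of the 5 described genes that also average at least 10 CPM over the 6 libraries were as follows, as a description over libraries that share their pairs. For *Oca2* they were *Chmp3* (Pearson r 0.994), an ESCRT-III gene, and *S100a1* (r 0.990), a calcium-binding protein gene. *S100a1* rose in the edgeR fit that blocks on pairs and omits pair 2. It was picked for following *Oca2* in these same libraries, so its rise is not separate evidence. *Trpm1* was followed by *Ifit3* (r 0.976), an interferon-induced gene, and *Fnip1* (r 0.972). *Slc45a2* was followed by *Aph1c* (r 0.998), a gamma-secretase gene, and *Wdr13* (r 0.996), *Slc24a5* by *Epc1* (r 0.998) and *Taf6* (r 0.997), and *Atp7a* by *Renbp* (r 0.998) and *Lgals3bp* (r 0.997). *S100a1* had levels of 56.6, 61.1 and 214 CPM in high-pigmented cells of pairs 1, 2 and 3 and 15.5, 20.9 and 64.7 CPM in their low-pigmented partners, and its log2 fold change was 1.78 ± 0.17 (SE; edgeR adjusted p 1.21e-06) in that fit. Among these 5 genes the most alike profiles were those of *Oca2* and *Trpm1* (r 0.950) and the least alike those of *Trpm1* and *Atp7a* (r 0.385), each over 6 libraries.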
